A study of Mus with 96 samples.

Results

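The genes described here are 44 genes of ribosome biogenesis in the mouse liver. They were taken by name from a count table of 55487 genes, and the requirement of at least 100 counts over the 96 libraries kept 44 of 44, among 15548 genes that met it. They were chosen as members of this pathway, with earlier results of these data already known. They were grouped by role into 6 genes of RNA polymerase I transcription, 3 of the box C/D small nucleolar ribonucleoprotein (snoRNP), 4 of the box H/ACA snoRNP, 6 abundant or regulatory nucleolar proteins, 11 of small subunit assembly and 14 of large subunit assembly.

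Ribosomes are built in the nucleolus, where RNA polymerase I transcribes the precursor of the large ribosomal RNAs. Box C/D snoRNPs guide methylation of that precursor, box H/ACA snoRNPs guide its conversion of uridine to pseudouridine, and many assembly factors fold, cut and export the subunits. Cells spend much of their energy on this pathway, MYC and the mTORC1 kinase are known to drive it, and parts of it are known to follow the daily feeding cycle in the liver.

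The libraries came from whole livers of C57BL/6J mice kept under 12 hours of light and 12 hours of darkness. The mice were 8 to 10 weeks old when housed for the experiment, before acclimation and the diet. Hep-Bmal1KO mice (AlbCre/+/Bmal1flx/flx) lose the clock gene Bmal1 where the Alb promoter drives Cre, that is in hepatocytes, and their Hep-Bmal1WT littermates (Alb+/+/Bmal1flx/flx) carry the same floxed alleles without Cre. The other cells of the liver keep Bmal1 in both. Each genotype received normal chow (NC, with 27% protein, 14% fat and 59% carbohydrate) or, for 2 weeks, a choline-deficient high-fat diet (cdHFD, with 9% protein, 60% fat, 31% carbohydrate, 2% cholesterol and 0.17% methionine), a model of metabolic dysfunction-associated steatohepatitis. Livers were taken at zeitgeber times (ZT, hours after lights on) 2, 6, 10, 14, 18 and 22, with 4 mice for each genotype, diet and ZT. Each of the 24 combinations held 2 males and 2 females, except Hep-Bmal1WT on cdHFD at ZT14 with 3 males and 1 female. A different set of mice was killed at each ZT, so time and set of mice cannot be told apart.

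RNA was counted by BRB-seq, which reads a tag near the 3′ end of each transcript. Gene counts summed to between 1861740 and 9718615 per library, with a median of 6412078, and the 44 genes together held 1558 to 14255 counts per library. Levels are given as CPM, a gene's count relative to the library total after TMM scaling, and a level is compared for the same gene only. The 8 hepatocyte markers together gave 49300 to 214000 CPM, as for liver. Bmal1 itself (Arntl in the table) was at 12.6 to 22.1 CPM at ZT22 in Hep-Bmal1WT NC and 7.45 to 9.9 in Hep-Bmal1KO NC, and at 18.7 to 23 and 6.22 to 9.7 on cdHFD. At ZT22 it was thus lower but not at 0 in Hep-Bmal1KO. At other times it was higher there. On NC at ZT10 its mean was 5.77 CPM in Hep-Bmal1KO and 0.747 in Hep-Bmal1WT, and on cdHFD at ZT6 it was 4.17 and 0.916. Counts near the 3′ end of a transcript need not include the deleted part. On 10 clock genes and 20 further genes that separate the genotypes, 7 of the 96 libraries lay with the other genotype than their label (2 each of Hep-Bmal1WT NC, Hep-Bmal1WT cdHFD and Hep-Bmal1KO NC, and 1 of Hep-Bmal1KO cdHFD). They were kept under their labels, and values without them are given where they bear on a result. The RNA of 95 libraries matched the labelled sex, and in 1 library labelled female neither Xist nor Y-linked genes gave more than 6 counts.

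The mean level of the pathway lay higher on cdHFD than on NC and lower in females than in males, with wide overlap. The mean over the 44 genes of log2 CPM, each gene centred on its mean over the 96 libraries, was -0.09 ± 0.16 (SD, n = 24) in Hep-Bmal1WT NC, -0.05 ± 0.15 in Hep-Bmal1KO NC, 0.03 ± 0.16 in Hep-Bmal1WT cdHFD and 0.11 ± 0.13 in Hep-Bmal1KO cdHFD. The 4 groups overlapped widely, since even the lowest, Hep-Bmal1WT NC, reached 0.24 in its highest library. The mean was 0.07 ± 0.15 in the 49 males and -0.07 ± 0.14 in the 47 females. This mean is a description and was not tested.

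**Figure D1:**
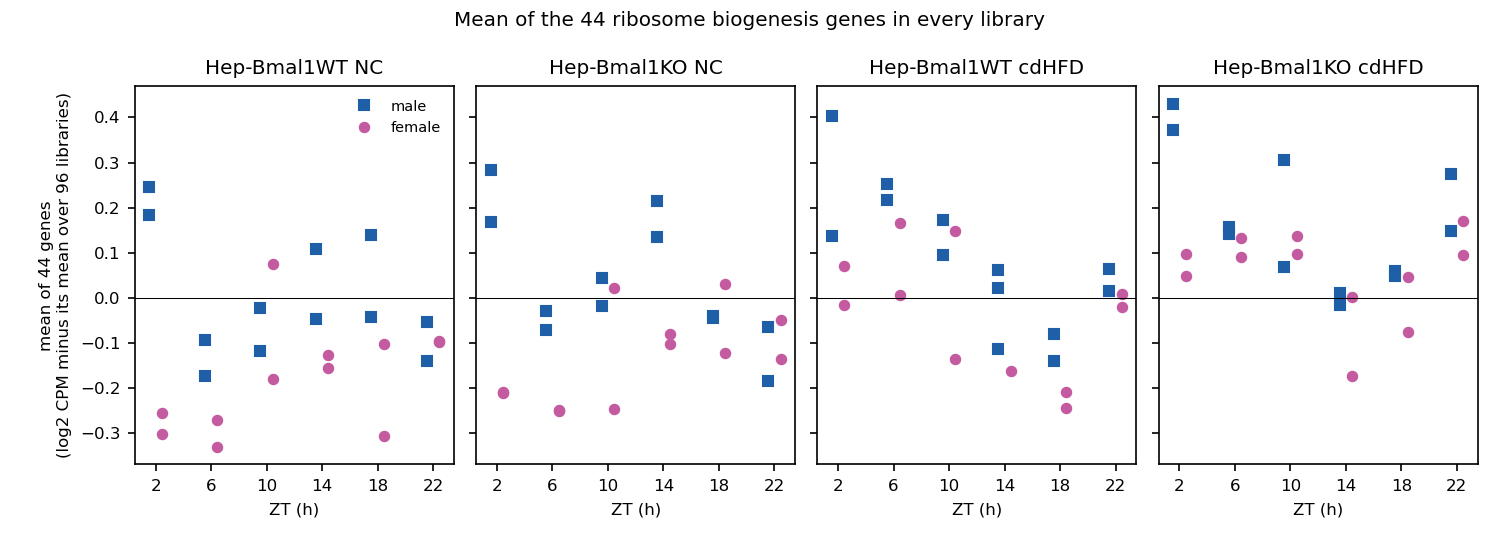
Mean of the 44 ribosome biogenesis genes in each of the 96 libraries (y axis, mean of centred log2 CPM) against zeitgeber time in hours (x axis), in one panel for each genotype and diet, with males and females in different symbols. The libraries ran from -0.33 in Hep-Bmal1WT NC to 0.43 in Hep-Bmal1KO cdHFD, and the male points tend to lie above the female points of the same time.

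On cdHFD genes of the pathway were called in both directions. In Hep-Bmal1WT livers 15 of 44 were higher on cdHFD (28.4% of all genes tested were) and 7 were lower (27.3% of all genes), by edgeR's quasi-likelihood test at a Benjamini-Hochberg adjusted p under 0.05. In Hep-Bmal1KO livers 19 were higher (32.4% of all genes) and 5 lower (29.6%). The shares called higher were near those of all genes in Hep-Bmal1WT and above them in Hep-Bmal1KO, and the shares called lower were below them. The median log2 fold change of the 44 was 0.13 in Hep-Bmal1WT and 0.19 in Hep-Bmal1KO, against 0.01 and 0.02 over all genes. Both genotypes called 14 of the same genes higher (Ubtf, Nop58, Gar1, Nhp2, Ncl, Npm1, Mybbp1a, Ddx21, Wdr43, Imp4, Pes1, Noc2l, Noc3l and Grwd1) and 5 lower (Polr1b, Nop10, Imp3, Emg1 and Nop16). No gene was called in opposite directions, and 17 were called in neither.

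Among the genes of RNA polymerase I transcription, which makes the ribosomal RNA precursor, the factor Ubtf rose on both genotypes' cdHFD and the polymerase subunit Polr1b fell. Ubtf, which binds ribosomal DNA, ran from 18.5 to 42.5 CPM (median 30.3) in Hep-Bmal1WT NC and from 30 to 51.6 (median 37.5) on cdHFD. Its log2 fold change was 0.32 ± 0.067 (SE), with an adjusted p of 5.74e-05, and in Hep-Bmal1KO it was 0.30 ± 0.073. The lowest cdHFD library of Hep-Bmal1WT lay close to the NC median, so the groups overlapped. Polr1b changed by -0.29 ± 0.089 and -0.26 ± 0.1. Rrn3, which recruits the polymerase to its promoter, fell in Hep-Bmal1WT by 0.24 on the log2 scale and Polr1a, the largest subunit, rose in Hep-Bmal1KO by 0.29.

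The 2 snoRNP groups held the largest rises and the largest fall. Nop58, a core protein of the box C/D particle, ran from 1.78 to 10.2 CPM (median 4.09) in Hep-Bmal1WT NC and from 3.44 to 13 (median 7.29) on cdHFD. In Hep-Bmal1KO it ran from 3.21 to 7.89 (median 4.87) on NC and from 4.29 to 13.2 (median 8.65) on cdHFD, with a log2 fold change of 0.76 ± 0.11 and an adjusted p of 8.95e-08. The cdHFD median lay above the highest NC library in Hep-Bmal1KO, but not in Hep-Bmal1WT, where the log2 fold change was 0.60 ± 0.15. Its partner Nop56 rose in Hep-Bmal1KO (0.32 ± 0.089), and the methyltransferase Fbl was called in neither genotype.

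Gar1, a core protein of the box H/ACA particle, showed the steepest rise in Hep-Bmal1WT. It ran from 1.22 to 7.77 CPM (median 3.12) on NC and from 2.76 to 8.92 (median 5.78) on cdHFD, a log2 fold change of 0.76 ± 0.14 with an adjusted p of 6.71e-06. In Hep-Bmal1KO its median was 4.31 CPM on NC and 6.78 on cdHFD, and the log2 fold change was 0.75 ± 0.14. The mean was higher on cdHFD at 6 of 6 ZTs in both genotypes, although single libraries overlapped. Gar1 was counted at a few CPM, so its single values carry much counting error. Nhp2, another protein of the particle, rose from a median of 49.5 to 62 CPM in Hep-Bmal1WT (0.38 ± 0.077, adjusted p 3.62e-05) and by 0.18 ± 0.073 in Hep-Bmal1KO.

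Nop10, the smallest protein of that same particle, went the other way. In Hep-Bmal1KO it ran from 45.8 to 161 CPM (median 123) on NC and from 38 to 104 (median 72.4) on cdHFD, a log2 fold change of -0.75 ± 0.068 with an adjusted p of 8.42e-14. The highest cdHFD library lay below the NC median. In Hep-Bmal1WT the median was 95.5 CPM on NC and 71 on cdHFD, a log2 fold change of -0.38 ± 0.071 with an adjusted p of 1e-05. Dkc1, the pseudouridine synthase of the particle, was called in neither genotype (-0.07 and 0.00).

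The abundant nucleolar proteins moved one way, with 4 of 6 higher in Hep-Bmal1WT, 5 of 6 higher in Hep-Bmal1KO and none lower. Npm1 (nucleophosmin, a chaperone of the granular nucleolus) ran from 47.5 to 113 CPM (median 86.2) in Hep-Bmal1WT NC and from 89 to 147 (median 110) on cdHFD. Its log2 fold change was 0.47 ± 0.06 with an adjusted p of 3.96e-09, and the lowest cdHFD library lay above the NC median. Ncl (nucleolin, which binds the nascent precursor) had a median of 76.1 CPM in Hep-Bmal1KO NC and 97.9 on cdHFD. Its log2 fold change there was 0.37 ± 0.064 (adjusted p 1.65e-06), against 0.26 ± 0.064 in Hep-Bmal1WT. The helicase Ddx21 and the transcription regulator Mybbp1a also rose in both genotypes, and Gnl3 (nucleostemin) in Hep-Bmal1KO by 0.27.

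Among the 11 genes of small subunit assembly, 2 rose and 3 fell in Hep-Bmal1WT and 2 rose and 2 fell in Hep-Bmal1KO. Emg1, a methyltransferase that modifies the small subunit's RNA, ran from 61.2 to 128 CPM (median 92.6) in Hep-Bmal1WT NC and from 55.4 to 89.8 (median 73.4) on cdHFD. Its log2 fold change was -0.29 ± 0.056 (adjusted p 2.08e-05), and in Hep-Bmal1KO it was -0.43 ± 0.06 (adjusted p 1.32e-08). No cdHFD library of Hep-Bmal1WT reached the NC median, and the mean was lower at 6 of 6 ZTs in both genotypes. Imp3, a protein of the U3 snoRNP, fell by 0.23 and 0.21 on the log2 scale while its partner Imp4 rose by 0.19 and 0.32.

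Of the 14 genes of large subunit assembly, 5 rose and 1 fell in Hep-Bmal1WT and 6 rose and 1 fell in Hep-Bmal1KO. Pes1, which forms a complex with Bop1 and Wdr12, ran from 15.4 to 25.9 CPM (median 21) in Hep-Bmal1KO NC and from 21.3 to 40.6 (median 26.8) on cdHFD. Its log2 fold change was 0.45 ± 0.058 with an adjusted p of 2.68e-09, and every cdHFD library lay above the NC median. Bop1 and Wdr12, the other members of that complex, were called in neither genotype. Nop16 was the one gene of the group that fell, by 0.32 in Hep-Bmal1WT and 0.39 in Hep-Bmal1KO on the log2 scale.

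**Figure D2:**
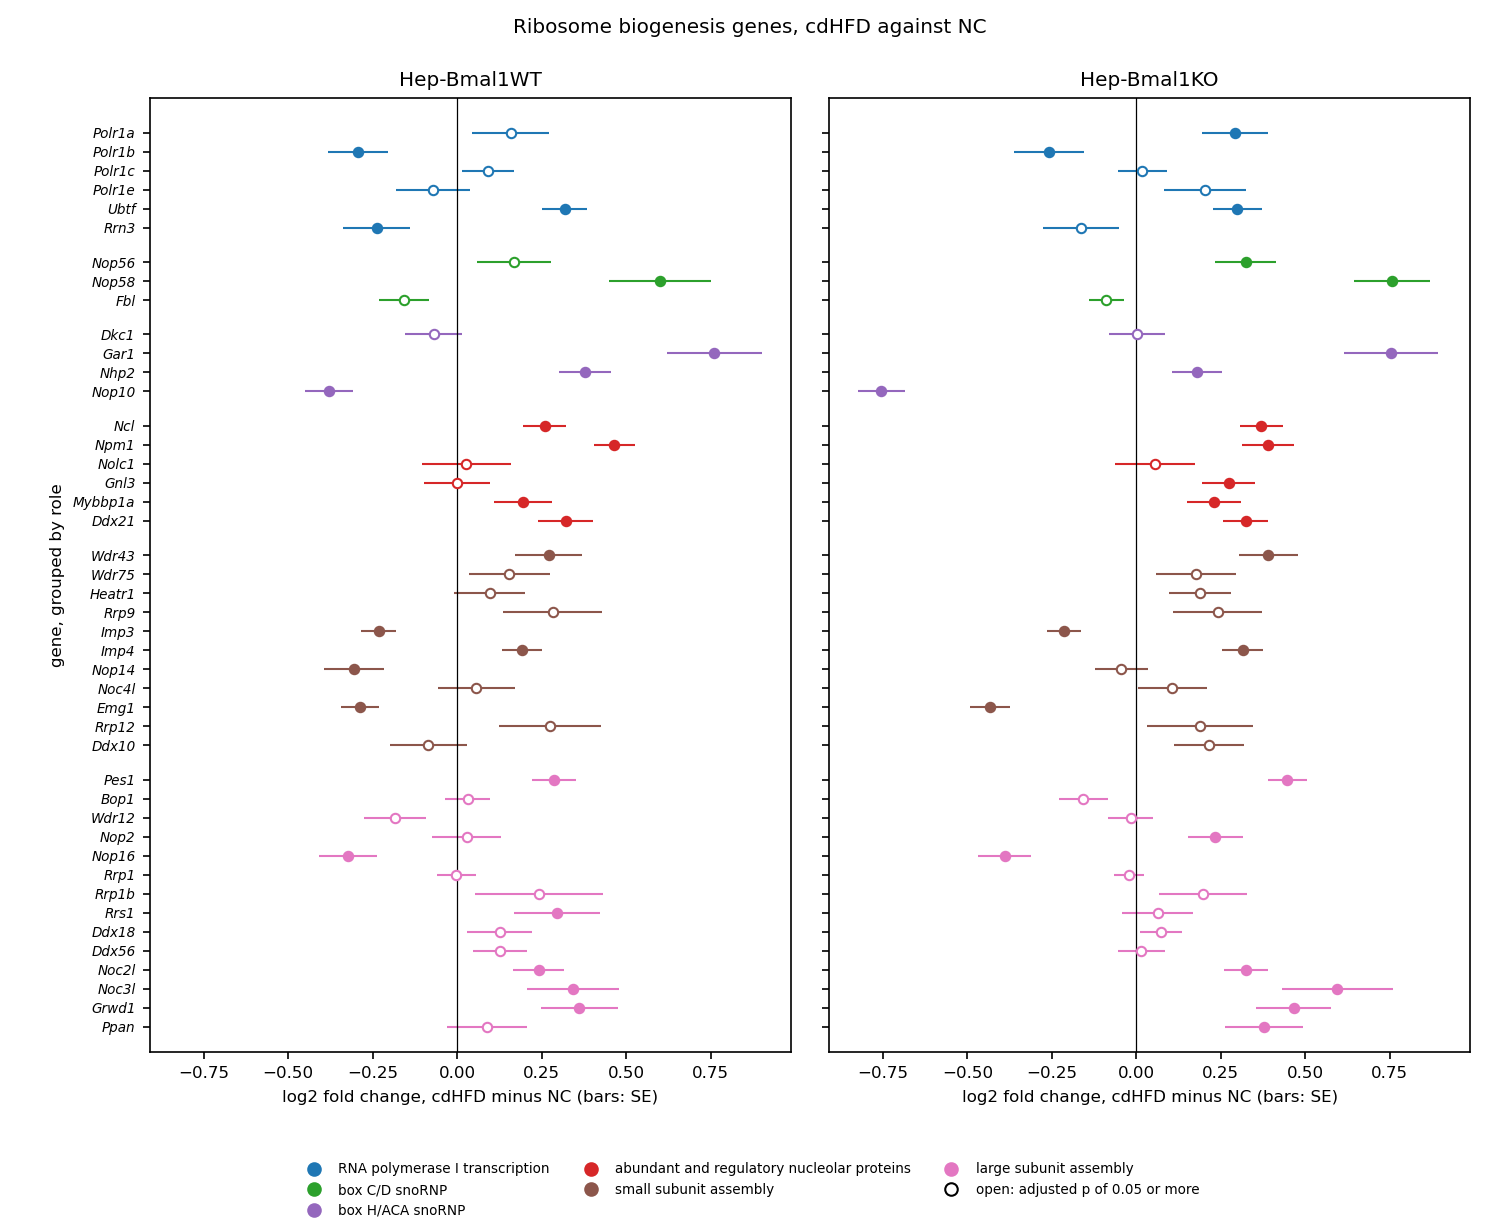
Log2 fold change of each of the 44 genes on cdHFD against NC (x axis) with its SE, in Hep-Bmal1WT and in Hep-Bmal1KO, with genes grouped by role along the y axis and filled points for an adjusted p under 0.05. Gar1 and Nop58 lie farthest to the right and Nop10 farthest to the left, at -0.75 in Hep-Bmal1KO.

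The scaling of the libraries set the level of these diet values. TMM centred the typical gene near 0, whereas library totals alone put the median of all genes at 0.50 in both genotypes and the 44 genes at 0.62 and 0.67. On totals 41 of 44 were called higher in Hep-Bmal1WT and 40 in Hep-Bmal1KO. Of all 15548 genes 11262 and 11789 were called on totals, in either direction. Nop10 in Hep-Bmal1WT (0.12) and Emg1 in both genotypes (0.21 and 0.045) then turned positive, though all stayed below the median of all genes. As a share of gene counts, the 44 genes had a median of 0.0885% in Hep-Bmal1WT NC and 0.127% in Hep-Bmal1WT cdHFD, and of 0.1% and 0.138% in Hep-Bmal1KO.

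Cell type markers moved with the diet. All 8 hepatocyte markers were lower on cdHFD in both genotypes, with a summed level of 105000 to 214000 CPM in Hep-Bmal1WT NC and 54700 to 91400 on cdHFD. All 10 macrophage markers (224 to 611 CPM against 1060 to 2700), all 4 neutrophil markers and all 10 markers of proliferating cells were higher in both. Markers of stellate cells and fibroblasts were higher in 7 of 8 (Hep-Bmal1WT) and 8 of 8 (Hep-Bmal1KO). In whole liver, fewer cells of a type and less RNA per cell cannot be told apart, and the part of cell composition in the diet values was not tested.

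Further genes around the pathway gave a mixed picture on the diet. Of 109 other tested ribosome biogenesis genes, 15 rose and 16 fell in Hep-Bmal1WT (median 0.04), and 25 rose and 15 fell in Hep-Bmal1KO (median 0.07). Eif6, which keeps the large subunit from joining the small one, had the smallest p of these, with a log2 fold change of 1.12 and 1.06. Of 78 cytosolic ribosomal protein genes, 53 rose and 1 fell in Hep-Bmal1WT, and 28 rose and 8 fell in Hep-Bmal1KO. In the MYC network 5 of 11 rose and 2 fell in Hep-Bmal1WT, with Myc itself at 0.97 (adjusted p 0.000421), and 6 rose and 2 fell in Hep-Bmal1KO. Of 20 mTORC1 pathway genes 5 rose and 8 fell in Hep-Bmal1WT and 8 rose and 7 fell in Hep-Bmal1KO, with Eif4ebp2, an inhibitor of translation initiation, at -0.77 in Hep-Bmal1WT.

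Few of these genes differed between the genotypes. On NC, 4 of 44 were higher in Hep-Bmal1KO (7.08% of all genes were) and 0 lower (5.45% of all genes), with 6 at an unadjusted p under 0.05 in either direction. The 4 were Npm1, Nop10, Nhp2 and Ddx56, and the median log2 fold change of the 44 was 0.01, against -0.01 over all genes. DESeq2's Wald test called 4 higher and 0 lower. None of the genes of RNA polymerase I transcription, the box C/D particle or small subunit assembly was called.

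Npm1 ran from 47.5 to 113 CPM (median 86.2) in Hep-Bmal1WT NC and from 73.2 to 135 (median 102) in Hep-Bmal1KO NC. The log2 fold change was 0.32 ± 0.06 with an adjusted p of 0.000167. The mean was higher at 6 of 6 ZTs, and at ZT10 the 4 Hep-Bmal1WT values (54.3, 69.3, 55.7 and 61.1 CPM) lay below the 4 Hep-Bmal1KO values (97.3, 85.3, 81 and 89.2 CPM).

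Nop10 ran from 44.1 to 166 CPM (median 95.5) in Hep-Bmal1WT NC and from 45.8 to 161 (median 123) in Hep-Bmal1KO NC, a log2 fold change of 0.38 ± 0.073 with an adjusted p of 0.000192. The highest Hep-Bmal1WT value and the lowest Hep-Bmal1KO value came from libraries that lay against their genotype label: at ZT6 replicate 2 of Hep-Bmal1WT gave 166 CPM beside 86.7 to 95.4 in the others, and at ZT10 replicate 3 of Hep-Bmal1KO gave 45.8 CPM beside 83.2 to 106. Without the 7 libraries the log2 fold change was 0.47 for Nop10 and 0.34 for Npm1. These libraries were picked on genes that separate the genotypes, so leaving them out tends to widen genotype differences and is no independent check. Of all 15548 genes, those called rose from 1948 to 2649 in that fit.

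Nhp2 differed by 0.26 ± 0.071 (adjusted p 0.0103), from a median of 49.5 to 59.3 CPM. Ddx56, a helicase of large subunit assembly, differed by 0.20 ± 0.069 (adjusted p 0.0489), from 20.2 to 24.2 CPM. Without replicate 1 neither was called (adjusted p 0.0963 and 0.462), and without replicate 4 neither was (0.0672 and 0.281). Ddx56 was also not called without replicate 3 (0.0547). Bop1 and Ncl, next in order of p, did not pass the test. On the same chow livers 48 of 78 cytosolic ribosomal protein genes were higher in Hep-Bmal1KO, with a median log2 fold change of 0.16, while 3 of 109 other ribosome biogenesis genes were higher and 2 lower. Of 8 hepatocyte markers 2 were lower (Alb at -0.82 and Hnf4a at -0.29), with a summed level of 105000 to 214000 CPM in Hep-Bmal1WT NC and 91400 to 214000 in Hep-Bmal1KO NC. Of 5 cholangiocyte markers 2 were higher (Sox9 at 1.06 and Spp1 at 0.68), with 33.2 to 144 CPM against 60.7 to 144. Markers of proliferating cells were called in 2 of 10, 1 in each direction. Their part in the genotype values on NC was not tested.

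On cdHFD, 2 of 44 were higher in Hep-Bmal1KO (4.74% of all genes) and 0 lower (4.92% of all genes), with 7 at an unadjusted p under 0.05 in either direction. DESeq2's Wald test called 2 higher and 0 lower. Npm1 ran from 89 to 147 CPM (median 110) in Hep-Bmal1WT and from 102 to 257 (median 127) in Hep-Bmal1KO, a log2 fold change of 0.24 ± 0.066 with an adjusted p of 0.011. Its highest values were both at ZT2, where the 2 male Hep-Bmal1KO libraries gave 243 and 257 CPM and the 2 female ones 128 and 141. Ncl ran from 49.6 to 120 CPM (median 86.8) in Hep-Bmal1WT and from 67.2 to 132 (median 97.9) in Hep-Bmal1KO, 0.24 ± 0.065 with an adjusted p of 0.0118. Without replicate 3 neither was called (adjusted p 0.0792 and 0.0796), and Npm1 was not called without replicate 2 (0.0575), nor Ncl without replicate 1 (0.0741). Nop14, which joins the early small subunit, was at 0.20 with an adjusted p of 0.0571, and at 0.22 with 0.0256 without the 7 libraries. Leaving these out raised the number of all genes called from 1502 to 2023.

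Small differences of one sign were common on cdHFD: 36 of 44 had a positive log2 fold change, against 8348 of all 15548 genes. The median was 0.07 against 0.01 over all genes. Of the cytosolic ribosomal protein genes 0 of 78 were called on cdHFD, and 2 had an unadjusted p under 0.05. Among markers, 5 of 8 of stellate cells and fibroblasts (493 to 1490 CPM in Hep-Bmal1KO and 513 to 1040 in Hep-Bmal1WT), 3 of 5 of cholangiocytes and 3 of 10 of macrophages were higher in Hep-Bmal1KO, and 1 macrophage marker was lower. Of 4 neutrophil markers 2 were higher (S100a8 at 0.47 and S100a9 at 0.39). Of 8 hepatocyte markers 2 were lower (Alb at -0.28 and Hnf4a at -0.25), with 54700 to 91400 CPM in Hep-Bmal1WT and 49300 to 86900 in Hep-Bmal1KO. Their part in these differences was not tested.

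Whether the genotype difference itself differed between diets was tested over the 96 libraries, and 1 of 44 genes passed (3.04% of all genes did). This was Nop10, with a difference of -0.38 ± 0.092 on the log2 scale and an adjusted p of 0.00945. Its mean was 93.3 ± 26.2 CPM (SD, n = 24) in Hep-Bmal1WT NC, 119 ± 23.8 in Hep-Bmal1KO NC, 70.3 ± 12.2 in Hep-Bmal1WT cdHFD and 71 ± 14.6 in Hep-Bmal1KO cdHFD. The genotypes thus lay apart on NC and together on cdHFD. Without the 7 libraries the difference was -0.47, where all genes called rose from 473 to 919. Without replicate 1 the difference was -0.20 with an adjusted p of 0.453.

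**Figure D3:**
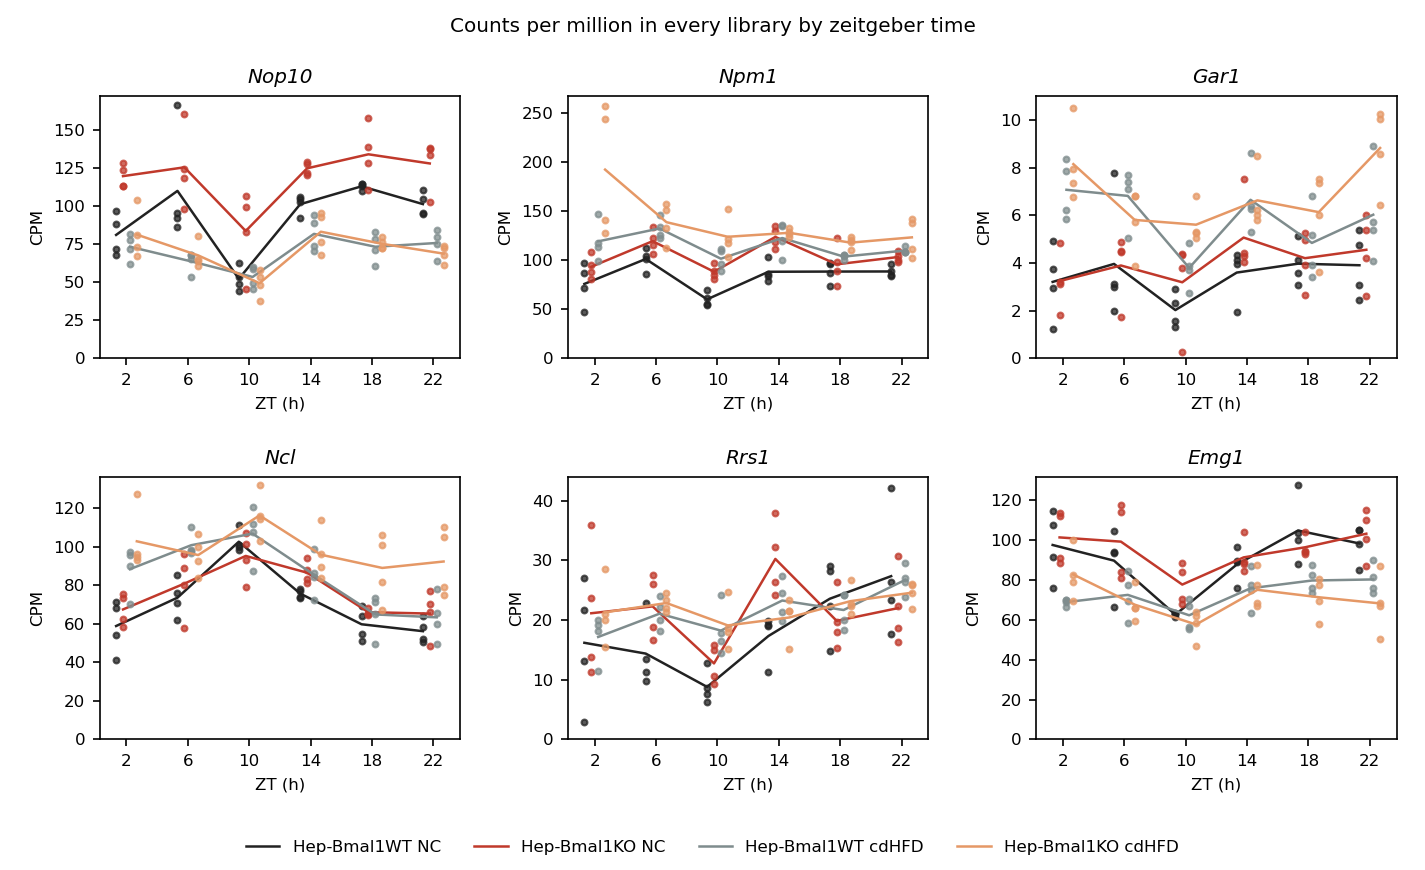
CPM of Nop10, Npm1, Gar1, Ncl, Rrs1 and Emg1 (y axis, 1 panel per gene) against zeitgeber time in hours (x axis), with 4 libraries per point in time as dots and their mean as a line for each genotype and diet. Nop10 on NC dips at ZT10, to a mean of 52.3 CPM in Hep-Bmal1WT, and Ncl rises there to 103 CPM.

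Daily rhythm was tested with a cosine and a sine of 24 hours in each group of 24 libraries. Within a group each column number in the library names held a pair of adjacent ZTs, so that number and time of day can be told apart only in part. On NC it was called for 4 of 44 genes in Hep-Bmal1WT (18.7% of all genes) and 1 in Hep-Bmal1KO (4.35% of all genes). On cdHFD it was called for 12 in Hep-Bmal1WT (14.3% of all genes) and 1 in Hep-Bmal1KO (3.81% of all genes). The share among the 44 was below that of all genes on NC in both genotypes. In Hep-Bmal1WT on cdHFD it was 27.3%, above that of all genes. Fitted amplitudes, on DESeq2's variance-stabilized log2 scale from mean to peak, had a median over the 44 of 0.15, 0.16, 0.18 and 0.14 in Hep-Bmal1WT NC, Hep-Bmal1KO NC, Hep-Bmal1WT cdHFD and Hep-Bmal1KO cdHFD, against 0.19, 0.15, 0.15 and 0.13 over all genes. On log2 CPM the medians of the 44 were 0.19, 0.17, 0.20 and 0.16, against 0.26, 0.21, 0.20 and 0.17 over all genes, so the order of the genotypes on NC depended on the scale.

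Ncl had the smallest p in 3 of the 4 groups. In Hep-Bmal1WT NC its 4 values were 98.4 to 111 CPM at ZT10 and 50.6 to 63.8 at ZT22, and these did not overlap. The fit gave an amplitude of 0.39 ± 0.06 (SE) and a peak at ZT 10.3 ± 0.58, with an adjusted p of 0.000266. In Hep-Bmal1KO NC the amplitude was 0.29 ± 0.057 with a peak at ZT 10.4 (adjusted p 0.0154). In Hep-Bmal1WT cdHFD it was 0.39 ± 0.055 with a peak at ZT 8.06 (adjusted p 0.000118). In Hep-Bmal1KO cdHFD Ncl was not called, with medians by ZT between 91.3 and 115 CPM. The test of a different rhythm between the genotypes on cdHFD gave Ncl an adjusted p of 0.62.

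The other rhythmic genes of Hep-Bmal1WT NC peaked at opposite times of day. Gnl3, with an amplitude of 0.45 ± 0.12, peaked at ZT 7.82 ± 1.04, and its 4 values at ZT10 (31.2 to 51.2 CPM) lay above the 4 at ZT18 (9.57 to 24.7 CPM). Rrs1, a factor of 5S RNA incorporation into the large subunit, had an amplitude of 0.58 ± 0.16 and a peak at ZT 20.1 ± 1.08. Its values were 6.23 to 12.8 CPM at ZT10 and 17.6 to 42 CPM at ZT22, without overlap, but at ZT2 they spread from 2.97 to 27. Emg1, with an amplitude of 0.27 ± 0.063 and a peak at ZT 21.6 ± 0.9, was 61.2 to 63.6 CPM at ZT10 and 85.1 to 105 at ZT22. Their adjusted p were 0.0159, 0.0094 and 0.0221, and that of Dkc1, next in order, was 0.057. The count of 4 was 2 without replicate 3 or 4 and 6 without the 7 libraries. The share of all genes called was not counted in these fits, so these counts have no comparison. ZT10 was thus the top for Ncl and Gnl3 and the bottom for Rrs1 and Emg1, in libraries from the same 4 mice.

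In Hep-Bmal1WT cdHFD the 12 rhythmic genes came from every role: Polr1a and Ubtf, Nop56, Dkc1, Ncl, Mybbp1a and Nolc1, Imp3, and Nop2, Ddx56, Wdr12 and Nop16. All 12 peaked in the light phase, between ZT 1.71 (Imp3) and ZT 8.2 (Polr1a), with amplitudes of 0.18 to 0.40. Mybbp1a had the widest swing (0.40 ± 0.084, peak at ZT 7.01, adjusted p 0.0016). Nolc1, a chaperone of snoRNPs, peaked at ZT 5.88 (0.32 ± 0.071, adjusted p 0.00377), Polr1a at ZT 8.2 (0.39 ± 0.094, adjusted p 0.00496) and Nop2, an RNA methyltransferase, at ZT 6.81 (0.30 ± 0.071, adjusted p 0.00816). The count changed with the mice left out: it was 7, 5, 9 and 3 without replicate 1, 2, 3 and 4. Each of these fits left out 1 mouse at every ZT. Without the 7 libraries against their label the count was 9. Of all genes the share called was 5.79, 5.8, 9.71 and 7.99% without replicate 1, 2, 3 and 4 and 13% without the 7 libraries. The share among the 44 was then 15.9, 11.4, 20.5, 6.82 and 20.5%, so that without replicate 4 it no longer lay above that of all genes.

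Counting all 44 genes, called or not, the fitted peak fell in the light phase for 18 genes in Hep-Bmal1WT NC, 21 in Hep-Bmal1KO NC, 37 in Hep-Bmal1WT cdHFD and 30 in Hep-Bmal1KO cdHFD. Over all genes tested that share was 49.6 to 51.5%. Within ZT1 to ZT9 lay 8, 10, 37 and 28 of the 44, against 30.6 to 34.6% of all genes, a window chosen after seeing the data. Most of these fits had not passed the test, so this is a description. In Hep-Bmal1KO cdHFD only Mybbp1a was called (0.28 ± 0.069, peak at ZT 6.88, adjusted p 0.0291), and Ddx56, Nolc1, Wdr43 and Ddx18 followed with adjusted p of 0.0642 to 0.112. With any 1 of the 4 replicate numbers left out Mybbp1a was not called, and without the 7 libraries 2 genes were. In Hep-Bmal1KO NC the genes after Ncl were Gnl3, Rrn3, Ubtf and Wdr12, at 0.0696 to 0.167, and without replicate 2, 3 or 4 no gene was called there.

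**Figure D4:**
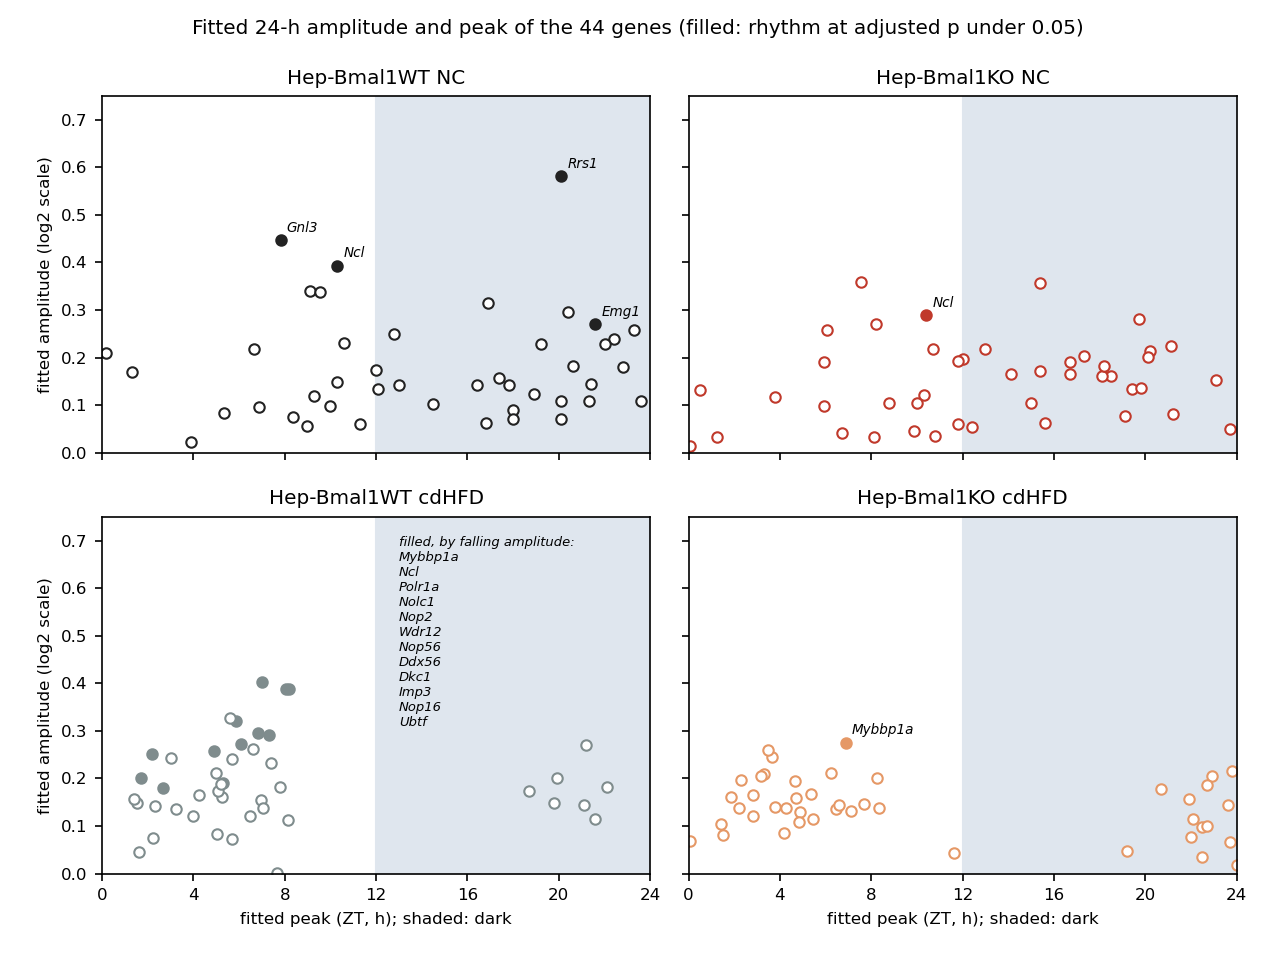
Fitted amplitude (y axis, log2 scale from mean to peak) against fitted peak time (x axis, zeitgeber time in hours) of the 44 genes, in one panel for each genotype and diet, with filled points for rhythms called at an adjusted p under 0.05. In the Hep-Bmal1WT cdHFD panel 37 of 44 points lie between ZT1 and ZT9, against 8 in the Hep-Bmal1WT NC panel.

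A change of rhythm with diet was called for 2 of 44 genes in Hep-Bmal1WT (6.13% of all genes) and 0 in Hep-Bmal1KO (0.907% of all genes), with 12 and 13 at an unadjusted p under 0.05. The 2 were Nop16 (adjusted p 0.00573) and Nolc1 (0.00797). Nop16 ran from 15.6 to 19.6 CPM at ZT10 and from 21.5 to 35.7 at ZT18 in Hep-Bmal1WT NC, without overlap. On cdHFD it ran from 15.9 to 21.7 at ZT10 and from 13.4 to 16.2 at ZT18, so the order of the times was turned. Without replicate 1, 3 or 4 only 1 of the 44 genes was called, without replicate 2 there were 3, and without the 7 libraries 4. For these fits too the share of all genes called was not counted. A change of rhythm with genotype was called for 0 genes on NC (0.386% of all genes) and 0 on cdHFD (0.431% of all genes), with 2 and 2 at an unadjusted p under 0.05. A rhythm called in Hep-Bmal1WT and not in Hep-Bmal1KO is therefore not shown to differ between them.

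Markers of proliferating cells were rhythmic too on cdHFD, 10 of 10 in Hep-Bmal1WT and 6 of 10 in Hep-Bmal1KO, and so were 5 of 5 cholangiocyte markers in Hep-Bmal1WT. Their part in the rhythm of the 44 genes was not tested. Of 109 other ribosome biogenesis genes, 12 were rhythmic in Hep-Bmal1WT NC, 1 in Hep-Bmal1KO NC, 17 in Hep-Bmal1WT cdHFD and 3 in Hep-Bmal1KO cdHFD. Mtor, the kinase of mTORC1, was called rhythmic in all 4 groups.

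Many of these genes were at a lower level in female than in male livers. The letter in the library names mostly followed sex, so letter and sex can hardly be told apart. With genotype, diet and ZT accounted for, 21 of 44 genes were lower in females (8.24% of all genes were) and 1 was higher (8.99% of all genes). The log2 fold change was negative for 41 of 44, with a median of -0.15 against 0.01 over all genes. Every role but RNA polymerase I transcription had called genes: 2 of 3 of the box C/D particle, 3 of 4 of box H/ACA, 4 of 6 abundant nucleolar proteins, 6 of 11 of small and 6 of 14 of large subunit assembly. All 6 genes of RNA polymerase I transcription had negative values (-0.18 to -0.04), of which 4 reached an unadjusted p under 0.05.

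Nhp2 had the smallest p, with 46.1 to 113 CPM (median 61.6) in the 49 males and 28.3 to 83.1 (median 54.8) in the 47 females. Its log2 fold change was -0.23 ± 0.043 with an adjusted p of 1.37e-05, and the female mean was the lower in 19 of 24 combinations of genotype, diet and ZT. Nop56 was 8.26 to 25.4 CPM (median 18) in males and 7.72 to 22.3 (median 13.7) in females, a log2 fold change of -0.30 ± 0.058. Nolc1 was 9.74 to 33.4 CPM (median 18.1) in males and 8.22 to 26.5 (median 15.4) in females, -0.32 ± 0.062, and lower in females in 21 of 24 combinations. The sexes overlapped over most of their range for each of these genes.

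Emg1 was the exception, higher in females by 0.11 ± 0.038 (adjusted p 0.0243), with a median of 84.7 CPM against 76.1. This call held without replicate 1 and was lost without replicate 2, 3 or 4. The mean over the 44 genes was lower in females in 21 of 24 combinations.

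**Figure D5:**
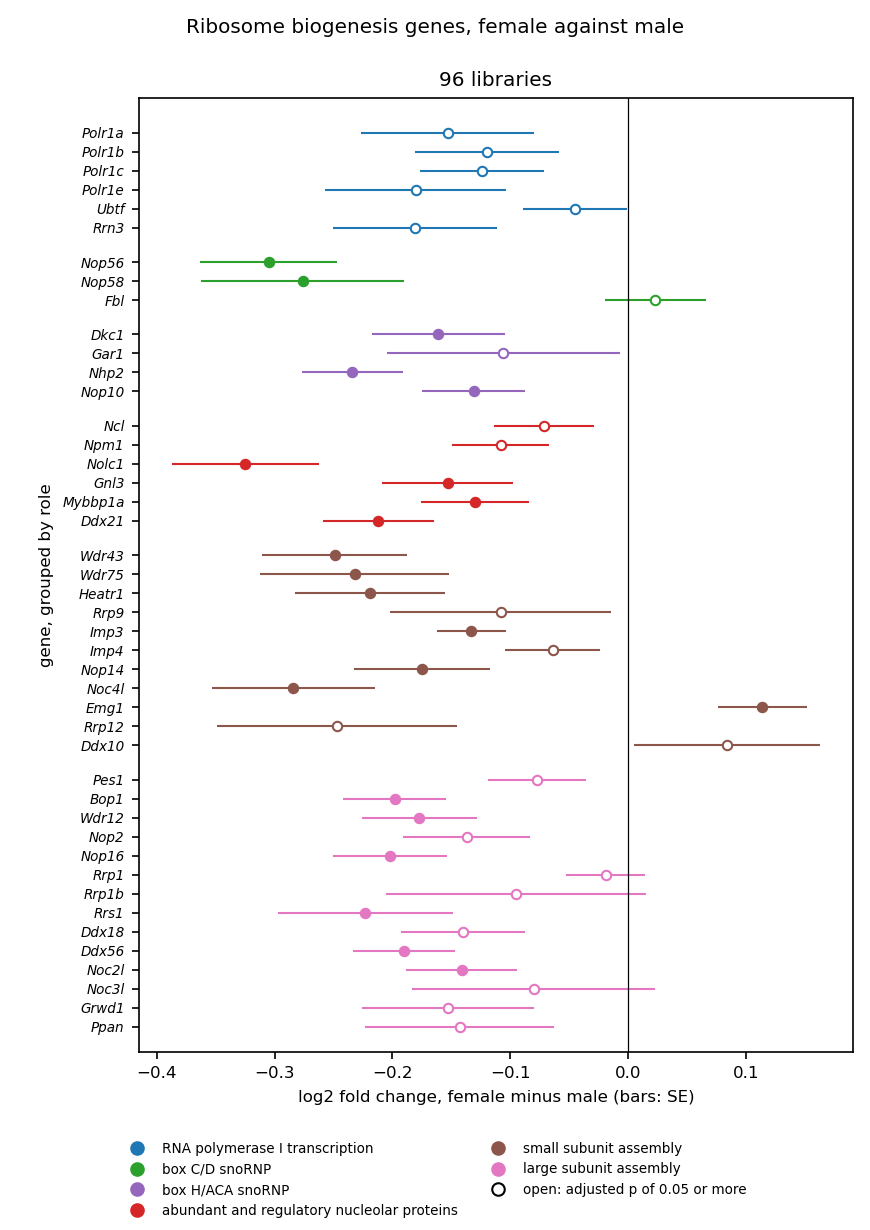
Log2 fold change of each of the 44 genes in females against males (x axis) with its SE, over the 96 libraries with genotype, diet and ZT accounted for, grouped by role along the y axis, with filled points for an adjusted p under 0.05. Of the 44 points 41 lie below 0, and Emg1 is the one filled point above it.

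Within NC libraries alone 15 genes were called lower in females (8.28% of all genes were), and within cdHFD libraries alone 2 were (2.48% of all genes). These counts are not shown to differ by diet: a term of sex with diet was called for 0 of 44 genes (7.9% of all genes) by edgeR, with 8 at an unadjusted p under 0.05 and Nolc1 and Heatr1 nearest at adjusted p of 0.0634 and 0.0649. DESeq2's Wald test called Heatr1 (adjusted p 0.0495). A term of sex with genotype was called for 0 of 44 (0.0386% of all genes) by edgeR and by DESeq2, with 2 at an unadjusted p under 0.05, where 12 genes were lower in females in Hep-Bmal1WT alone (5.24% of all genes) and 5 in Hep-Bmal1KO alone (3.28%). The median log2 fold change was -0.17 on NC and -0.14 on cdHFD. Without the 7 libraries against their label 18 were lower (8.03% of all genes) and 1 higher. Without the library of unclear sex 22 were lower and 1 higher, and 2734 of all 15548 genes were called in either direction. Without replicate 2 or 3, 9 genes were called lower (4.63 and 4.75% of all genes).

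Other lists of protein synthesis were counted in the same fit. Of 109 other ribosome biogenesis genes 27 were lower in females and 1 higher, and of 78 cytosolic ribosomal protein genes 24 were lower and 0 higher. The 20 mTORC1 pathway genes went both ways, with 6 lower and 3 higher and a median of -0.03. Among them the translation inhibitor Eif4ebp1 (-0.39) and the kinase Rps6kb1 (-0.27) were lower in females and the inhibitor Eif4ebp2 (0.11) was higher. Markers of endothelial cells were higher in females in 5 of 6 (82.6 to 246 CPM in males and 91.1 to 247 in females), of stellate cells and fibroblasts in 3 of 8 and of macrophages in 3 of 10. Of 8 hepatocyte markers 2 were higher and 2 lower. Their part in the sex difference was not tested.

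The 44 genes did not vary as one block. Pearson's r between pairs over the 96 libraries had a median of 0.15 over 946 pairs and ran from -0.67 to 0.70, with 698 positive. After subtracting the mean of each genotype, diet and ZT the median was 0.16. Nop56 (0.77), Wdr43 (0.74) and Ddx21 (0.65) lay closest to the mean of the other genes, and Emg1 (-0.37) and Nop10 (-0.28) ran against it. The libraries share depth and composition, so these are descriptions. Outside the 44, the genes most like their mean were Trmt61a (r = 0.68), Trim27, Ccdc86, Mak16, Eif4a1, Gfpt1, Tsr1, Wdr77, Arfgap3 and Bhlha15 (0.65), over 96 libraries.

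Several of the genes overlap a neighbour on the mm10 genome, and the sources used here do not give whether the counting used strand. Emg1 (chr6:124704370-124712186) overlaps Lpcat3, a phospholipid acyltransferase gene, by 347 bases. Lpcat3 ran against Emg1 over the 96 libraries (r = -0.38), and fell on cdHFD in Hep-Bmal1WT (-0.19, adjusted p 0.0164). Nhp2 (chr11:51619773-51623718) overlaps Rmnd5b by 46 bases, and Rmnd5b was higher in females (0.15), where Nhp2 was lower. Nop10 (chr2:112261926-112262898) overlaps no other gene in that annotation. Npm1 has many processed copies in the genome, and its values are uncertain as far as reads from them were counted together.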

How the data were processed

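The authors made BRB-seq libraries from total liver RNA with the MERCURIUS kit and sequenced them on an Illumina NovaSeq. Per the labels, STAR, HTSeq, featureCounts, DESeq2 and the mm10 build were used. Their versions, the handling of molecular identifiers and the use of strand are not given in the sources used here. The authors deposited raw read counts per gene, not normalized. Rows for reads without alignment (14.8 to 34% of the table's total per library) or without a gene (5.65 to 11.3%) were left out.

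The 44 genes and all gene lists were chosen with earlier results of these data known. Groups, ZT and sex came from the labels. Each column number in the library names held 1 genotype and diet, so that number and the group cannot be told apart. Within a group each column number held a pair of adjacent ZTs, with letters A to D at the earlier and E to H at the later. Column number and time of day can thus be told apart only in part. The letter in these names mostly followed sex, with A, B, E and F mostly male and C, D, G and H mostly female. Letter and sex can thus hardly be told apart. Genes with at least 100 counts over the 96 libraries (15548) were fitted with edgeR 4.0.16 in R 4.3.3 (TMM, glmQLFit, glmQLFTest), called at a Benjamini-Hochberg adjusted p under 0.05 over all genes tested. Genotype was tested within each diet and diet within each genotype (48 libraries each, ZT as a factor), rhythm in each group of 24, interactions over 48 or 96, and sex over 96 with the 24 combinations as a factor. The terms of sex with diet and with genotype, and the fits of sex within a diet or genotype, were chosen after seeing the data. Log2 CPM used a prior count of 2. Amplitude and peak are least-squares fits of a 24 hour cosine on the blind variance-stabilized values of DESeq2 1.42.0, with delta-method SE. Labels give no replicate numbers, so mice were numbered in listed order within each combination. The code was tested on simulated data.

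Gene positions are from RefSeq GRCm38.p6, the assembly of mm10. The genes described with full values were the 6 with the smallest p for each genotype and diet comparison, 5 for each rhythm and 3 for each interaction and for sex, and others are named where a count needs them. Counting error falls with depth, and the 44 genes together held as few as 1558 counts in a library.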

Additional observations from a re-analysis of the deposited data

Results flagged for a closer look

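In 264 groups of 4 libraries (one genotype, diet and ZT, for a gene described by ZT or for the mean over the 44 genes) 17 had a library far from the other 3 by Dixon's test at the 95% level, which chance gives in about 1 of 20 groups. For Nop10 these were 166 CPM in replicate 2 of Hep-Bmal1WT NC at ZT6, 53.7 CPM in replicate 3 of Hep-Bmal1WT cdHFD at ZT6 and 103 CPM in replicate 3 of Hep-Bmal1KO NC at ZT22. For Gar1 they were 1.96 CPM in replicate 2 of Hep-Bmal1WT NC at ZT14, and, in Hep-Bmal1KO NC, 1.73 CPM in replicate 4 at ZT6, 0.253 CPM in replicate 3 at ZT10 and 7.52 CPM in replicate 2 at ZT14. In Hep-Bmal1KO cdHFD Gar1 stood apart at 6.8 CPM in replicate 2 at ZT10 and at 8.49 CPM in replicate 2 at ZT14. The Nop10 value of 166 CPM and the Gar1 values of 1.73 and 0.253 CPM came from libraries that lay against their genotype label.

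Ncl stood apart at 110 CPM in replicate 2 of Hep-Bmal1WT cdHFD at ZT6 and at 127 CPM in replicate 3 of Hep-Bmal1KO cdHFD at ZT2. Rrs1 did so at 11.3 CPM in replicate 1 of Hep-Bmal1WT NC at ZT14, and Npm1 at 114 CPM in replicate 2 of Hep-Bmal1WT cdHFD at ZT22. In Hep-Bmal1KO NC, Emg1 gave 104 CPM in replicate 3 at ZT18 and Dkc1 16 CPM in replicate 1 at ZT6. The mean over the 44 genes was -0.173 in replicate 3 of Hep-Bmal1KO cdHFD at ZT14 and -0.076 in replicate 4 at ZT18, below the other 3 libraries of each group.

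Effects that differed between groups by a tested interaction were the genotype difference of Nop10 between the diets (adjusted p 0.00945) and the rhythms of Nolc1 (0.00797) and Nop16 (0.00573) between the diets in Hep-Bmal1WT, each by edgeR's quasi-likelihood test.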

How the results depend on the processing

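No paired analysis was possible because the labels give no replicate numbers and no mouse was sampled in more than 1 group. Of 447 values of single genes under the alternatives, 414 kept their side of the threshold, and those of them that were called kept their direction. A change of sign in a value called in neither fit was counted among the 414. The call was lost for 21 and gained for 9, and 3 values with a call reversed. Library totals alone, in place of TMM, gave 41 higher and 0 lower for the diet in Hep-Bmal1WT and 40 and 1 in Hep-Bmal1KO, and reversed Nop10 (0.12) and Emg1 (0.21) in Hep-Bmal1WT and Emg1 (0.045) in Hep-Bmal1KO. That scaling raised the median of all genes to 0.50 and called 11262 and 11789 of all 15548 genes, in either direction. DESeq2's size factors moved no count by over 1.5 times, and its Wald test moved 1, calling 1 gene for sex with diet.

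Males alone gave 9 and 12 genes higher on cdHFD (Hep-Bmal1WT, Hep-Bmal1KO) and 1 higher in Hep-Bmal1KO on cdHFD. Of all 15548 genes 7066, 8164 and 794 were called there, in either direction. Females alone gave 2 higher in Hep-Bmal1KO on NC and 1 on cdHFD, with 546 and 654 of all genes called in either direction. These fits hold about 24 libraries in place of 48. With every gene of at least 1 count tested, 0 were higher in females, where 2542 of all 26567 genes were called in either direction. For sex, NC alone gave 0 higher, cdHFD alone 0 higher and 2 lower, Hep-Bmal1WT alone 12 lower, and Hep-Bmal1KO alone 0 higher and 5 lower. Without the 7 libraries against their genotype label, rhythm was called for 2 genes in Hep-Bmal1KO cdHFD and a change with diet for 4 in Hep-Bmal1WT; the cause was not tested. At an unadjusted p under 0.01 rhythm was called for 2 genes in Hep-Bmal1KO NC and 5 in Hep-Bmal1KO cdHFD, and by a cosinor F test for 0 in the latter. For the rhythm counts of this paragraph the share of all genes called was not counted, so they have no comparison.

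Leaving out 1 replicate number, the genotype comparison gave 2 to 4 genes higher on NC and 0 to 2 on cdHFD, and its difference between diets 0 to 1. Of all 15548 genes 938 to 1616, 536 to 1382 and 103 to 355 were called in these fits, in either direction. Rhythm was called for 2 to 3 genes (Hep-Bmal1WT NC), 0 to 1 (Hep-Bmal1KO NC), 3 to 9 (Hep-Bmal1WT cdHFD) and 0 to 0 (Hep-Bmal1KO cdHFD), and its change with diet in Hep-Bmal1WT for 1 to 3. Among these rhythm fits the share of all genes called was counted for Hep-Bmal1WT cdHFD alone. For sex, 9 to 16 genes were lower (4.63 to 5.97% of all genes) and 0 to 1 higher. Each of these fits left out mice of mostly 1 sex.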
